A study of Mus musculus with 18 samples.

Results

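The miR-99, miR-100 and miR-125 families were examined in knee cartilage of mice whose anterior cruciate ligament (ACL) had been ruptured. The members were the 10 mature miRNAs of the count table whose names belong to miR-99a, miR-99b, miR-100, miR-125a and miR-125b, each arm taken separately, of 1412 mature miRNAs in all. They were mmu-miR-99a-5p, mmu-miR-99a-3p, mmu-miR-99b-5p, mmu-miR-99b-3p, mmu-miR-100-5p, mmu-miR-125a-5p, mmu-miR-125a-3p, mmu-miR-125b-5p, mmu-miR-125b-1-3p and mmu-miR-125b-2-3p. The mouse prefix mmu is left out below. They were chosen by name and not by a rule on measured values, although earlier results of these data were known. All 10 had reads, and 9 passed the filter on low counts; miR-99a-3p did not.

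The 18 small RNA libraries came from femoral condyle cartilage of wild-type C57bl6 mice, which were male and 12 weeks old per the study's methods. A single load to the right knee ruptured the ACL. Injured right knees were taken at day 1 (n = 3) and day 7 (n = 3), with the unloaded left knees of injured mice as contralateral controls at day 1 (n = 3) and day 7 (n = 3). Naïve mice received no load and carry a day 7 label (n = 6). All injured mice were given the analgesic buprenorphine and isoflurane anaesthesia for the load, and the contralateral knee shares these with the injured knee. Each library holds cartilage pooled from several mice. The series text gives 4 mice per library. The study's scheme gives 4 mice per pool where cartilage was partly lost at day 7, and other numbers elsewhere. The study's methods count 6 naïve mice in all, whose left and right knees were pooled apart, so naïve libraries must share mice. The tests and SDs below nevertheless treat the 6 naïve libraries as separate units. Which libraries come from 1 pool is not given by the labels, and p-values therefore measure the spread between these libraries.

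Depth was lowest in day 7 injured replicate 1, with 758388 counts, and highest in day 7 contralateral replicate 2, with 4088852. The 4 cartilage miRNAs on the marker list, the arms of miR-140 and miR-455, had counts in every library, with 48 as the lowest count of any of them. Their summed level was 6171.91 to 10498.9 CPM, the count scaled to a common library size, in naïve and 6756.42 to 9983.36 CPM in day 7 injured libraries. Skeletal muscle miRNAs (miR-1a-3p, miR-133a-3p, miR-133b-3p and miR-206-3p) were far higher, at a summed 67476.7 to 198861 CPM in naïve, 136656 to 249838 CPM in day 7 contralateral and 69609.5 to 133903 CPM in day 7 injured libraries. None of these 4 miRNAs was at 0 in any library, and none passed the test between day 7 injured and naïve cartilage. All 4 had lower estimates in day 7 injured cartilage, with log2 fold changes of -0.95 to -0.39. Erythroid miRNAs (3) summed to 5534.63 to 7711.05 CPM in naïve and 2726.66 to 3908.50 CPM in day 7 injured libraries. Of the erythroid, leukocyte and vascular markers, 2 of 10 were called between these groups, against 78 of 428 tested miRNAs (18.2%). Both were lower in injured cartilage: the erythroid miR-486a-5p (log2 fold change -1.22, limma-voom adjusted p = 0.000673) and the lymphocyte miR-150-5p (-1.54, adjusted p = 0.00317). Of the 4 leukocyte markers 1 was higher, at a log2 fold change of 0.18. Their sum in day 7 injured libraries (4192 to 4802 CPM) lay within the naïve range (2602 to 6494 CPM). The part of other tissues in the values of the members was not tested, except where a value is given below. In cartilage with several cell types, fewer cells of a type and less RNA per cell cannot be told apart.

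MicroRNAs are cut from a hairpin precursor, and either arm of the hairpin, 5p or 3p, can be kept in the silencing complex. The retained strand finds its mRNA targets mainly through the seed, bases 2 to 8 from its 5′ end. The miR-99, let-7 and miR-125 hairpins lie together in 3 paralogous clusters that descend from a common ancestral cluster. The miR-99 and miR-100 5p arms are known to act on mTOR and IGF1R, and the miR-125 5p arms are the vertebrate relatives of lin-4, the founding miRNA of worm developmental timing. In the mouse genome (GRCm38), the chromosome 9 cluster holds Mir100, Mirlet7a-2 and Mir125b-1 over 50578 bases (chr9:41531425-41582002), in introns of the noncoding genes 3110039I08Rik and Gm49317. The chromosome 16 cluster holds Mir99a, Mirlet7c-1 and Mir125b-2 over 47408 bases (chr16:77598936-77646343), in introns of the host gene Mir99ahg. The chromosome 17 cluster is compact, with Mir99b, Mirlet7e and Mir125a within 692 bases (chr17:17830188-17830879), where Mir99b and Mirlet7e lie in introns and Mir125a overlaps an exon of Spaca6. All of these hairpins are on the plus strand.

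The 5p arms that dominate the counts are shown first, from RefSeq (GRCm38.p6), 5′ to 3′, with the seed in capitals. The 3 arms of the miR-99 and miR-100 group share the seed ACCCGUA. The 5p arms of miR-125 share CCCUGAG with miR-351-5p, a miRNA from the X chromosome that is no member. In RefSeq miR-6367 and miR-6394 carry this seed as well. Of these only miR-6367 was among the counted miRNAs, with at most 1 read in a library.
miR-99a-5p: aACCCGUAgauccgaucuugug
miR-100-5p: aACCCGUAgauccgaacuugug
miR-99b-5p: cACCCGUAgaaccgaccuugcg
miR-125a-5p: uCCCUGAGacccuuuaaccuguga
miR-125b-5p: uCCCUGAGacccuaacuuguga
miR-351-5p: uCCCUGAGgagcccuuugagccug
With positions counted from 1 at the 5′ end, miR-100-5p differs from miR-99a-5p by a single substitution, U16A, outside the seed. miR-99b-5p differs from miR-99a-5p by A1C, U11A, U16C and U21C. A single base thus separates the counts of miR-99a-5p from those of miR-100-5p, and how the counting treated reads that match several miRNAs is not stated. No other miRNA of the table had the same counts as any member in every library. miR-125b-5p is identical from Mir125b-1 on chromosome 9 (chr9:41581940-41581961) and Mir125b-2 on chromosome 16 (chr16:77646279-77646300), so its count is the sum of both copies.

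The 3p arms are shown because they tell the copies of miR-125b apart and because the arms of 1 hairpin are compared below.
miR-125b-1-3p: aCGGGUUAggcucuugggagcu
miR-125b-2-3p: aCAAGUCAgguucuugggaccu
miR-125a-3p: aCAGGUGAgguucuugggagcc
miR-99b-3p: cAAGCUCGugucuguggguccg
miR-99a-3p: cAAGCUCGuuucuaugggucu
miR-125b-2-3p differs from miR-125b-1-3p by G3A, G4A, U7C, C11U and G20C, of which 3 fall in the seed. The seeds of the 3 miR-125 3p arms are all different and are shared by no other mouse miRNA in the RefSeq table, while miR-99a-3p and miR-99b-3p share AAGCUCG.

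The families were abundant in cartilage and made up 5.04% to 11.3% of all miRNA counts in a library. In naïve cartilage the share was 8.34% ± 1.80 (SD, n = 6) and in day 7 injured cartilage 7.34% ± 0.912 (SD, n = 3). miR-99a-5p alone held 61.2% to 80.1% of the members' counts and was the fifth most abundant of the 1412 miRNAs by mean level. Levels are given as CPM on library sizes scaled by the trimmed mean of M-values (TMM); each read covers a mature miRNA of 21 to 24 bases, so no length scaling was applied. Over 18 libraries the mean was 55519 CPM for miR-99a-5p, 9460 CPM for miR-125b-5p, 6472 CPM for miR-125a-5p, 4281 CPM for miR-100-5p and 2409 CPM for miR-99b-5p. The 3p arms were far below, with 147 CPM for miR-125b-1-3p, 134 CPM for miR-125b-2-3p, 54.2 CPM for miR-99b-3p, 22.7 CPM for miR-125a-3p and 0.307 CPM for miR-99a-3p. Over the 18 libraries the ranges of miR-99a-5p and miR-125b-5p did not overlap. Nor did those of miR-99b-5p and miR-125b-1-3p, or of miR-125a-3p and miR-99a-3p. All other arms adjacent in this order of levels had ranges that overlapped, among them miR-125b-5p and miR-125a-5p. Within each library, however, miR-125b-5p counts were 1.18 to 1.85 times those of miR-125a-5p.

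**Figure D1:**
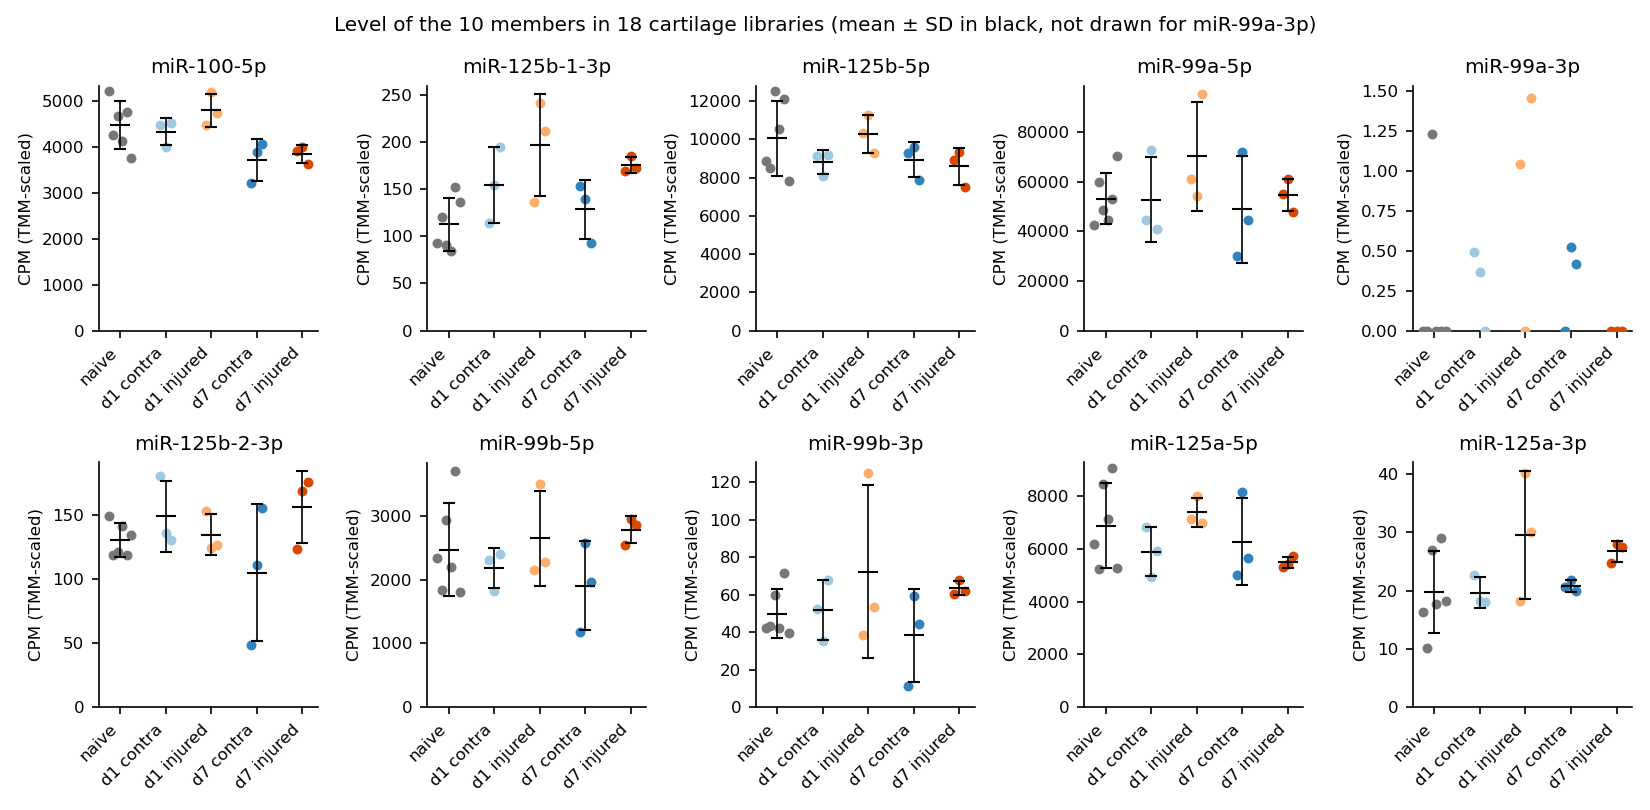
Level of each member (CPM on TMM-scaled library sizes, linear axis from 0) in the 5 groups, with 1 point per library and the mean ± SD in black, which is not drawn for miR-99a-3p. Only miR-125b-1-3p has day 7 injured libraries (168.979 to 185.093 CPM) that all lie above the 6 naïve libraries (83.9 to 152 CPM).

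Nearly all reads of a hairpin's pair of arms came from the 5p arm. Reads of miR-99a-3p numbered 12 over all libraries against 2037218 reads of miR-99a-5p, or 0.000589% of both arms, and 7 of 18 libraries had any. miR-100-3p, which is no member, had 39 reads against 150282 of miR-100-5p. The 3p share was 2.17% for miR-99b, 0.343% for miR-125a and 2.96% for miR-125b with both 3p arms added, over all libraries. The 3p share of miR-100 was 0.0259%. The hairpins miR-99a and miR-99b, whose 3p arms share a seed, had different arm shares, with at most 0.00252% for miR-99a and at least 0.922% for miR-99b in any library.

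Summed by seed, the 3 arms with ACCCGUA gave 60180 ± 9843 CPM (SD, n = 6) in naïve and 61365 ± 6758 CPM (SD, n = 3) in day 7 injured cartilage. The sum at day 1 was 59335 ± 16692 CPM in contralateral and 77724 ± 21403 CPM in injured cartilage, and at day 7 it was 54467 ± 22444 CPM in contralateral cartilage (SD, n = 3 each). miR-99a-5p made up 84.9% to 93.1% of this sum in every library. The 4 counted arms with CCCUGAG, miR-6367 included, gave 17226 ± 3627 CPM (SD, n = 6) in naïve and 14320 ± 799 CPM (SD, n = 3) in day 7 injured cartilage. miR-125b-5p made up 53.1% to 64.0% of this sum. miR-351-5p, which carries the same seed, made up 1.28% of it or more and never above 2%. The ranges of both sums overlapped between day 7 injured and naïve cartilage. These sums were chosen after the values had been seen and were not tested.

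The first comparison asked which miRNAs change in injured cartilage by day 7. None of the 9 tested members was called in day 7 injured versus naïve cartilage by limma-voom with Benjamini-Hochberg adjustment at 0.05, whereas 78 of 428 tested miRNAs were (18.2%). At an unadjusted p under 0.05 the count was 1 of 9 members and 115 of 428 miRNAs. edgeR's quasi-likelihood test and the DESeq2 Wald test each called 0 members, with 1 below 0.05 unadjusted. The 5p arms, which hold nearly all of the reads, had log2 fold changes of between -0.29 and 0.23, and their 95% confidence intervals together spanned -0.73 to 0.77. Changes of up to 1.66-fold lower or 1.71-fold higher are therefore within the limits for these arms. The median absolute log2 fold change was 0.25 over the members and 0.42 over all tested miRNAs.

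miR-99a-5p, the arm with the most reads, was at 55177, 61020 and 47978 CPM in the 3 day 7 injured libraries and at 42634, 50893 and 70404 CPM (lowest, median and highest) in naïve libraries. The injured libraries lay inside the naïve range. Its log2 fold change was 0.05 (SE 0.26, adjusted p = 0.909, limma-voom). miR-100-5p was at 3925, 4010 and 3638 CPM in day 7 injured and 3753 to 5233 CPM in naïve cartilage, with a log2 fold change of -0.21 (SE 0.16, adjusted p = 0.454). miR-125b-5p was at 8948, 9324 and 7514 CPM against 7830 to 12549 CPM, with a log2 fold change of -0.21 (SE 0.18, adjusted p = 0.494). For all of these arms the groups overlapped.

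miR-125b-1-3p, the passenger arm of the chromosome 9 copy, came closest to the threshold. It was at 169, 185 and 173 CPM in the day 7 injured libraries and at 83.9, 107 and 152 CPM (lowest, median and highest) in naïve libraries, and the groups did not overlap. It was the only member without overlap here, against 103 of 428 tested miRNAs (24.1%). Its log2 fold change was 0.68 (SE 0.26) with an unadjusted p of 0.0164 and an adjusted p of 0.0823 (limma-voom). The call changed with the fit: without naïve replicate 5 the adjusted p was 0.0329, and it ranged from 0.00494 to 0.374 over the other settings. Without naïve replicate 5 the log2 fold change was 0.81. The arm from the chromosome 16 copy, miR-125b-2-3p, was at 124, 169 and 175 CPM in day 7 injured and 118.5 to 149 CPM in naïve cartilage, with a log2 fold change of 0.25 (SE 0.27, adjusted p = 0.582). That the copies differed was not shown, since their ratio had an adjusted p of 0.258 in the exact permutation test described below.

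miR-125a-3p was at 24.7, 28.1 and 27.6 CPM in day 7 injured and at 10.2, 17.97 and 29.03 CPM (lowest, median and highest) in naïve cartilage, from 18, 62 and 83 reads in the injured libraries. The injured libraries were high but within the naïve range, with a log2 fold change of 0.56 (SE 0.30, adjusted p = 0.259). miR-125a-5p was at 5315, 5423 and 5724 CPM against 5236 to 9061 CPM, with a log2 fold change of -0.29 (SE 0.21, adjusted p = 0.419). The 5p arms of miR-99b and miR-125a, cut from hairpins of the same 692 bases, thus had fold changes of opposite sign, 0.23 (SE 0.26) and -0.29, neither of which passed the test.

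**Figure D2:**
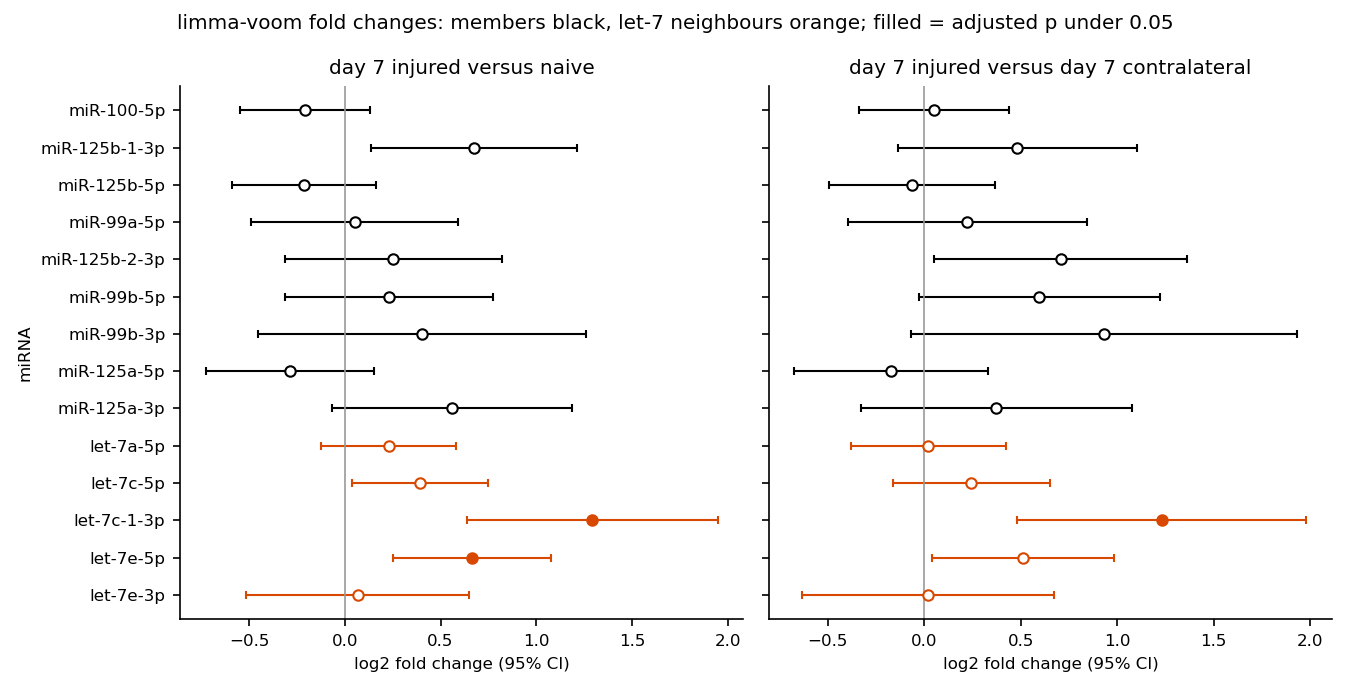
Log2 fold change with its 95% confidence interval (limma-voom) for the 9 tested members (black) and 5 let-7 arms of the same clusters (orange), for day 7 injured against naïve (left) and against contralateral cartilage (right); filled points passed an adjusted p of 0.05. No member is filled, while let-7c-1-3p is filled in both panels and let-7e-5p on the left.

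Against the contralateral knee at day 7, 0 of 9 members and 63 of 428 miRNAs (14.7%) were called, and at an unadjusted p under 0.05 the counts were 1 and 99; edgeR's quasi-likelihood test and DESeq2 called 0 members, with 0 below 0.05 unadjusted. The median absolute log2 fold change was 0.37 over the members and 0.42 over all tested miRNAs. Groups did not overlap for 3 members, miR-99b-3p, miR-125a-3p and miR-125b-1-3p, all 3p arms and all higher in the injured knee, against 26.6% of all tested miRNAs without overlap and 17.5% without overlap and higher. miR-99b-3p was at 60.4, 67.9 and 62.1 CPM in injured and 10.99, 59.5 and 44.1 CPM in contralateral libraries, with a log2 fold change of 0.93 (SE 0.48, adjusted p = 0.251). Contralateral replicate 1 was low in this arm, with 16 reads, and without it the log2 fold change was 0.38. miR-99b-5p was at 2542, 2949 and 2855 CPM against 1181, 2581 and 1959 CPM, with a log2 fold change of 0.60 (SE 0.30, adjusted p = 0.246), and 0.37 without that library. miR-125b-2-3p had the lowest adjusted p, 0.167, at a log2 fold change of 0.71 (SE 0.31). It was at 48.8, 111 and 155 CPM in contralateral libraries, of which the lowest was again replicate 1, and 123.643 to 175.356 CPM in injured libraries. Without replicate 1 its log2 fold change was 0.30, and without contralateral replicate 3 it was 1.03 with an adjusted p of 0.0236, so that single control libraries decided its size and its call.

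The remaining comparisons gave no call among the members. In day 7 versus day 1 injured cartilage 67 of 428 miRNAs were called (15.7%) and 0 of 9 members; miR-125a-5p and miR-100-5p did not overlap between these groups, against 34.3% of miRNAs, and had log2 fold changes of -0.42 (SE 0.24, adjusted p = 0.283) and -0.32 (SE 0.19, adjusted p = 0.298). At day 1, injured cartilage showed 0 calls among all 428 miRNAs against either control (0%), with limma-voom counting 8 miRNAs in each at an unadjusted p under 0.05. One of these against naïve cartilage was miR-125b-1-3p, at 137, 242 and 212 CPM in day 1 injured libraries, with a log2 fold change of 0.80 (SE 0.26) and an adjusted p of 0.992. Against the day 1 contralateral knee, miR-125a-5p and miR-125b-5p did not overlap, against 8.64% of miRNAs, and had log2 fold changes of 0.33 (SE 0.24) and 0.22 (SE 0.21, both adjusted p = 0.997). The contralateral groups gave 0 calls against naïve cartilage and against each other by limma-voom. In the test of whether the injury effect differed between day 7 and day 1, 29 of 428 miRNAs were called (6.78%) and no member, and the lowest adjusted p of a member was 0.347, for miR-125b-2-3p. All of these comparisons that use the same group share its libraries.

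The let-7 arms that lie between the members in each cluster were followed as neighbours. Of 6 such arms 5 passed the filter, and 2 were called higher in day 7 injured than in naïve cartilage, against 62 of 428 tested miRNAs (14.5%). let-7c-1-3p, the passenger arm of Mirlet7c-1 on chromosome 16, was at 20.6, 30.8 and 28.2 CPM in day 7 injured libraries and 5.33 to 23.9 CPM in naïve libraries. It rose by a log2 fold change of 1.29 (SE 0.31, adjusted p = 0.00487) against naïve cartilage and by 1.23 (SE 0.36, adjusted p = 0.0238) against the contralateral knee. The call against naïve cartilage held in every setting run. That against the contralateral knee did not hold when injured replicate 2 or 3 was left out, at an adjusted p of 0.0882 and 0.0836, nor when libraries were scaled by their totals (0.0853) or every miRNA of at least 1 count was kept (0.160). Its neighbour miR-99a-5p, 1 hairpin away, is the arm with log2 fold change 0.05. let-7e-5p, between miR-99b and miR-125a on chromosome 17, was at 1657, 1613 and 1633 CPM against 824 to 1374 CPM and rose by 0.66 (SE 0.20, adjusted p = 0.0200), and leaving out 1 of the injured libraries ended the call, at an adjusted p of 0.0589 without replicate 2 and 0.0698 without replicate 3. Scaling by library totals alone gave an adjusted p of 0.284, and keeping every miRNA of at least 1 count gave 0.151. Against the day 7 contralateral knee let-7e-5p was not called, at a log2 fold change of 0.51 (SE 0.23, adjusted p = 0.167, limma-voom). The log2 ratio of let-7e-5p to miR-125a-5p counts was -1.81 to -1.68 in day 7 injured libraries and -3.19 to -2.53 in naïve libraries. It was -3.07 to -1.89 in day 7 contralateral libraries, so that the day 7 injured libraries lay above both. This ratio was chosen after the values had been seen and was not tested. let-7c-5p, whose reads can also come from Mirlet7c-2 on chromosome 15, had a log2 fold change of 0.39 (SE 0.17, adjusted p = 0.137), while let-7e-3p did not pass the test. let-7a-5p did not pass either, and since the RefSeq table places its sequence at Mirlet7a-1 on chromosome 13, its count cannot be assigned to the chromosome 9 cluster.

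Of the ratios between members within a library 10 were tested, as log2 ratios of counts with 0.5 added. They covered the arms of each hairpin except miR-100, whose 3p arm is no member, and pairs of paralogs or of arms from 1 locus. Arm ratios of miR-125b set the 5p count of both copies against the 3p arm of 1 copy. Ratios within a library need no scaling between libraries. The ratio of miR-99a-5p to miR-99a-3p is an exception, since in the 11 libraries with 0 reads of the 3p arm it is the 5p count over the 0.5 added and is set by depth. In day 7 injured versus naïve cartilage 3 of 10 had groups without overlap, against 26.4% of the 91378 ratios between any 2 tested miRNAs, a share near that of the members. Arm ratios were without overlap in 11 of the 111 hairpins with both arms tested (9.91%), a set that leaves out miR-125b, whose 3p arms are named by copy. Of the 10 ratios 0 passed an adjusted p of 0.05 in the two-sided exact permutation test, whose smallest p for 3 against 6 libraries is 0.0119. Ratios at this smallest p had an adjusted p of 0.0595, so the 0 was largely set by the numbers of libraries and ratios. limma on the same 10 ratios, which shares the spread over groups, put the same 3 below 0.05, all at an adjusted p of 0.0213. Against the day 7 contralateral knee 4 of 10 did not overlap, where the shares were 31% of all ratios and 8.11% of arm ratios, and 3 against 3 libraries cannot give an exact p below 0.10. At day 1, 0 of the 10 ratios were without overlap between injured and contralateral knees, against 7.15% of all ratios.

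The first of the 3 was the arm ratio of miR-125a. The 3p arm made up 0.463%, 0.515% and 0.479% of both arms in the day 7 injured libraries, and 0.195%, 0.291% and 0.345% (lowest, median and highest) in naïve libraries, so that every injured library was above every naïve one. The 95% exact Clopper-Pearson interval was 0.275% to 0.731% in day 7 injured replicate 1, which rests on 18 reads of the 3p arm, and such intervals cover counting error only. The log2 ratio of 5p to 3p reads was lower by a difference of -0.81, or 1.76-fold, with an exact permutation p of 0.0119, the smallest possible, and an adjusted p of 0.0595. Among the 111 hairpins with both arms tested, 8 had a lower ratio without overlap in this comparison (7.21%). Contralateral libraries at day 7 had 0.268% to 0.409%, below all injured libraries, and day 1 injured libraries had 0.255% to 0.498%, which overlapped with them.

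The second was the ratio of miR-125b-5p to the arm of its chromosome 9 copy. miR-125b-1-3p made up 1.85%, 1.95% and 2.25% of the reads of both in day 7 injured libraries, 0.715% to 1.71% in naïve libraries and 1.17% to 1.62% in day 7 contralateral libraries. The log2 difference against naïve cartilage was -0.89, or 1.85-fold (exact permutation p = 0.0357, adjusted p = 0.119). Day 1 libraries overlapped with the day 7 injured ones, at 1.31% to 2.24% in injured and 1.24% to 2.08% in contralateral knees. The equivalent ratio for the chromosome 16 copy differed by -0.46 (adjusted p = 0.238, exact permutation) and that of the arms of miR-99b by -0.17 (adjusted p = 0.238), with groups that overlapped.

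The third was the ratio of miR-99b-5p to miR-125a-5p, 5p arms of different hairpins in the chromosome 17 cluster. Its log2 value was -1.06, -0.88 and -1.003 in the day 7 injured libraries, against -1.70, -1.52 and -1.29 (lowest, median and highest) in naïve and -2.09 to -1.53 in contralateral libraries at day 7. All 15 libraries outside the day 7 injured group lay between -2.09 and -1.20, below the 3 injured ones. How many ratios between other miRNAs separate in this way was not counted. The difference was 0.51 against naïve cartilage, or 1.43-fold (exact permutation p = 0.0119, adjusted p = 0.0595), and 0.77 against the contralateral knee, or 1.71-fold (exact permutation p = 0.10, adjusted p = 0.25; limma adjusted p = 0.00826).

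**Figure D3:**
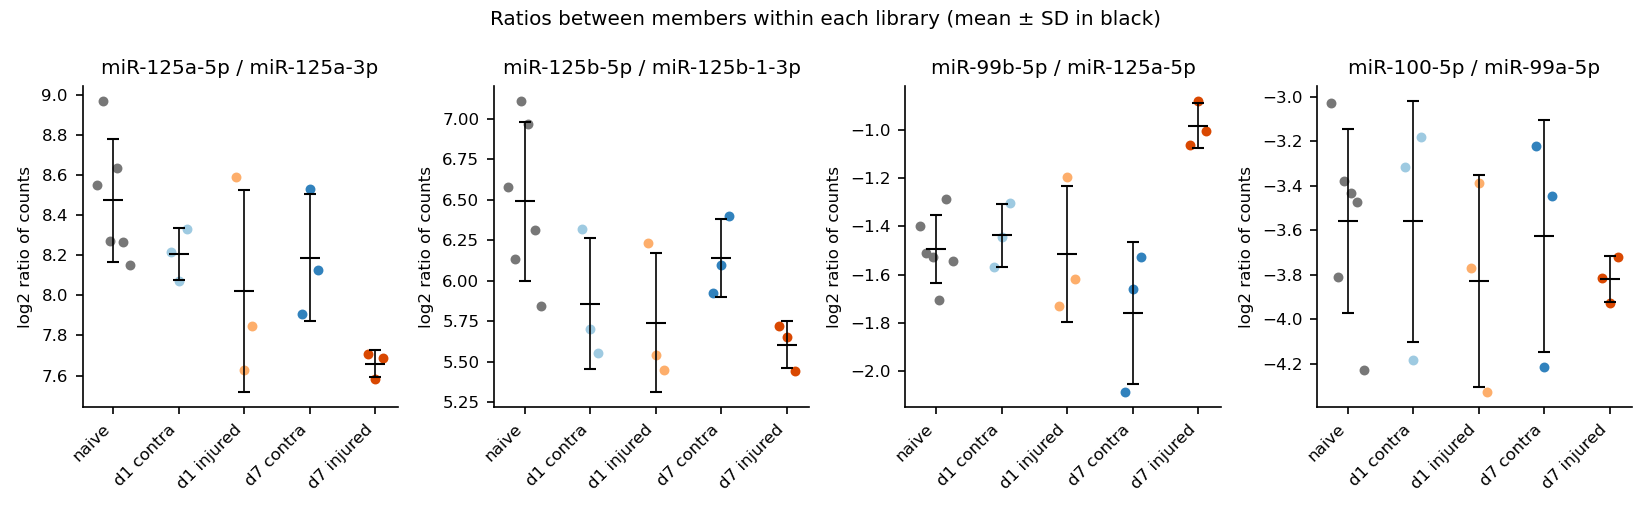
Log2 ratio of counts between members in the 5 groups, with 1 point per library and the mean ± SD in black; the vertical axes do not start at 0. The 3 day 7 injured libraries lie apart from the 6 naïve libraries in the first 3 panels, whereas in the last, miR-100-5p over miR-99a-5p (-3.93 to -3.72 in injured, -4.23 to -3.03 in naïve libraries), they lie within them.

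The muscle miRNA level moved with the ratio of miR-99b-5p to miR-125a-5p. Over the 18 libraries, as deviations from the group means, the log2 ratio of miR-99b-5p to miR-125a-5p had Pearson's r = -0.80 with the log2 summed skeletal muscle level (permutation p = 0.00166, adjusted p = 0.0332) and Spearman's rho = -0.82 (permutation p = 0.00130). Without the 2 libraries farthest from the median muscle level r was -0.68. This was 1 of 20 relations, 10 ratios against muscle level and against total counts, chosen after the values had been seen, and the only one with an adjusted p under 0.05. Within the span of muscle levels of the day 7 injured libraries, 69609.5 to 133903 CPM, there were 3 libraries of other groups, with log2 ratios of -1.30, -1.40 and -1.53, all below the injured libraries. Below that span lay day 1 injured replicate 2 (55087.5 CPM, log2 ratio -1.20) and naïve replicate 5 (67476.7 CPM, -1.29). These had the highest ratios outside the day 7 injured group. The part of the muscle level in the difference between the groups was not tested.

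**Figure D4:**
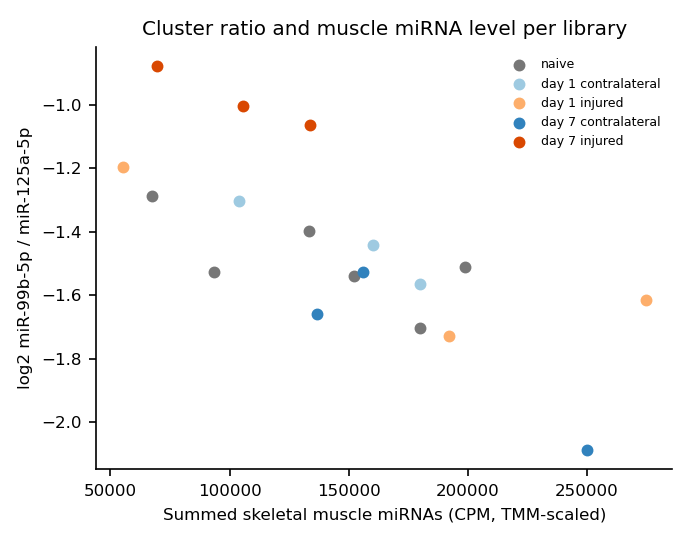
Log2 ratio of miR-99b-5p to miR-125a-5p counts (vertical axis, which does not start at 0) against the summed level of 4 skeletal muscle miRNAs (CPM), 1 point per library, coloured by group. Libraries with more muscle miRNA had a lower ratio (r = -0.80 after removal of group means), and the 3 day 7 injured points lie highest.

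The count ratio of the paralogs miR-100-5p and miR-99a-5p, which differ at base 16, varied within groups, and the ranges of the groups overlapped. miR-99a-5p outnumbered miR-100-5p by 14.1, 15.2 and 13.2 times in day 7 injured libraries and by 8.15 to 18.8 times in naïve libraries. The log2 difference between these groups was -0.26 (exact permutation p = 0.357, adjusted p = 0.491). The highest ratios in the contralateral and day 1 injured groups were 18.1 in day 1 contralateral replicate 2, 20.1 in day 1 injured replicate 3 and 18.6 in day 7 contralateral replicate 2, where the other libraries of these groups ranged from 9.06 to 13.6. Log2 miR-100-5p over miR-99a-5p moved with the log10 total count of a library (Pearson's r = -0.60, Spearman's rho = -0.58, permutation p = 0.0144 and 0.0170). The adjusted p of r was 0.0575 over 20 relations, which did not pass the threshold. Without the 2 libraries farthest from the median r was -0.63. The relation was not particular to this pair. With total count, log2 miR-99b-5p over miR-99a-5p had r = -0.59, at the same adjusted p. Log2 miR-125b-5p over miR-125b-2-3p had r = -0.64, likewise at that adjusted p.

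Whether members of a cluster vary together from library to library was examined in 9 pairs of a miR-99 or miR-100 5p arm with a miR-125 arm, 3 of the same locus and 6 of different loci, on log2 CPM as deviations from the group means (n = 18). Of these 9 pairs 1 passed the threshold, miR-99b-5p with miR-125a-5p of the compact chromosome 17 cluster, with Pearson's r = 0.88 (permutation p = 0.00012, adjusted p = 0.00108) and Spearman's rho = 0.84 (permutation p = 0.00048, adjusted p = 0.00432). Without the 2 libraries farthest from the median of miR-99b-5p r was 0.84, and leaving out any single library gave 0.838 to 0.906. The same-locus pair of chromosome 9, miR-100-5p with miR-125b-1-3p, had r = -0.14 and rho = 0.0031 (permutation p = 0.630 and 0.995). That of chromosome 16, miR-99a-5p with miR-125b-2-3p, had r = 0.26 and rho = 0.096 (permutation p = 0.681 and 0.781), and r turned to -0.41 without day 7 contralateral replicate 1. The 6 pairs of different loci had r from -0.03 to 0.51 with adjusted p of 0.522 or more. With library totals in place of TMM, 4 of the 9 pairs passed, of which 3 were of different loci, so that the count depends on the scaling. The pair on chromosome 17 combines 5p arms of high level, whereas the other same-locus pairs include a 3p arm of low level, and the difference between their correlations was not tested. High values were not particular to a shared cluster. As a description on the same scale (n = 18, common scaling), 5p arms of different loci outside these 9 pairs had r = 0.77 for miR-125a-5p with miR-125b-5p and r = 0.72 for miR-99b-5p with miR-100-5p, and miR-125a-5p had r = 0.85 with the non-member miR-744-5p.

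**Figure D5:**
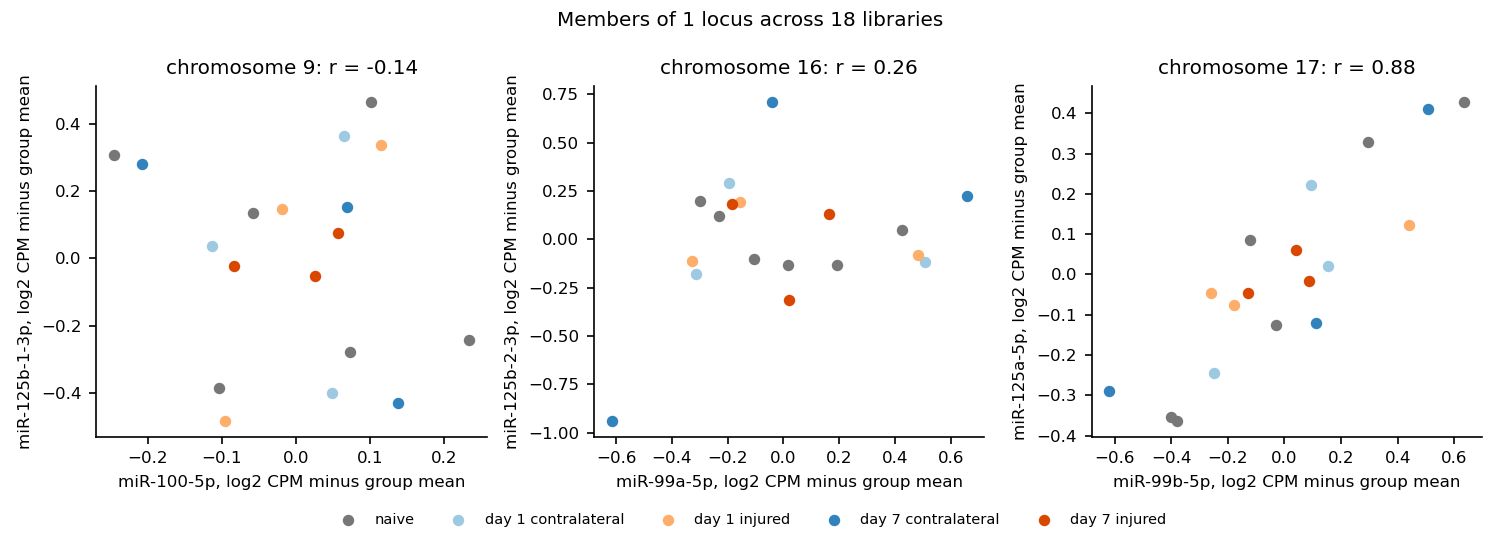
Log2 CPM of the miR-125 arm (vertical) against the miR-99 or miR-100 arm (horizontal) of the same locus, each as deviation from its group mean, with 1 point per library coloured by group. The points follow a line for chromosome 17 (r = 0.88) and not for chromosome 9 (r = -0.14) or chromosome 16 (r = 0.26).

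As a description over the 18 libraries, the non-members whose log2 CPM was most like that of each 5p arm were, for miR-99a-5p, miR-365-1-5p (r = 0.89) and miR-151-3p (r = 0.82). For miR-125a-5p they were miR-744-5p and miR-423-3p (r = 0.82 each) and for miR-99b-5p miR-299a-5p (r = 0.82) and miR-615-3p (r = 0.80). For miR-100-5p they were miR-103-3p (r = 0.79) and miR-130a-3p (r = 0.77). For miR-125b-5p they were miR-361-3p (r = 0.75) and miR-351-5p (r = 0.71), the arm from the X chromosome with the same seed. These libraries share scaling and differ in depth, and the likeness was not tested.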

How the data were processed

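The authors deposited a table of raw read counts per mature miRNA for 18 libraries, without normalisation. Per the study's methods, reads were trimmed with Trim Galore (0.6.6), aligned to miRBase mature sequences with Bowtie (1.3.0) and counted with SAMtools (1.12). Each row of the table was assigned to the sample whose title ends in the same library number; the prefixes of these names differ. Counts were analysed in R 4.3.3. filterByExpr of edgeR 4.0.16 kept 428 of 1412 miRNAs (minimum count 10, minimum total 15), TMM gave the library sizes, and a voom fit of limma 3.58.1 (lmFit and eBayes) to the 18 libraries had a mean for each of the 5 groups, without the block for shared mouse pools that the study used, which the labels do not give. Each of 9 contrasts was adjusted by the Benjamini-Hochberg method over 428 miRNAs, at a threshold of 0.05. Ratios were compared by two-sided exact permutation tests adjusted over 10 ratios, and correlations by 100000 permutations within groups. The fit was tested on simulated counts. Named miRNAs were the members, the let-7 arms of their clusters, miR-351, the 2 miRNAs most like each 5p arm and markers of cartilage, skeletal muscle, erythroid, leukocyte and vascular cells. Members, lists and tests were chosen with earlier results of these data known. Alternatives were DESeq2 size factors, library totals, other filters, edgeR's quasi-likelihood test, DESeq2 1.42.0, quality weights, fits of the compared groups only and leaving out each library. Leukocyte miRNAs (4) summed to 2602 to 6494 CPM in naïve and 4192 to 4802 CPM in day 7 injured libraries, and vascular miRNAs (3) to 48081 to 82620 and 73579 to 80468 CPM. Python 3.11.15 with matplotlib 3.10.9 made the figures.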

Additional observations from a re-analysis of the deposited data

Results flagged for a closer look

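In naïve cartilage 26 levels and ratios were examined for a library that stands apart, of which chance flags about 1 in 20. The log2 ratio of miR-99a-5p to miR-99a-3p was 14.95 in naïve replicate 3, against 16.92 in the nearest of the other naïve libraries. It rests on 2 reads of miR-99a-3p in that library and 0 in the other 5. Where the 3p arm has 0 reads the ratio is the 5p count over the 0.5 added, so that it follows depth.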

How the results depend on the processing

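No paired analysis was possible because the labels give no replicate numbers or pools that tie libraries together. The count of members called, over 9 comparisons, was 0 in 70 of 72 settings other than left-out libraries. The exceptions were day 7 injured versus naïve cartilage with sample quality weights (2 members, miR-125b-1-3p and miR-125a-3p) and with only the compared groups fitted (1 member, miR-125b-1-3p). With each library left out in turn it was 0 to 1 in day 7 injured versus naïve cartilage (1 without naïve replicate 5), 0 to 1 against the day 7 contralateral knee (1 without contralateral replicate 3) and 0 in the other comparisons. The number of ratios past the threshold was 0 with a pseudocount of 1 and with any library left out, and 3 with limma. Leaving out a library raises the smallest p of the exact test, so its 0 was nearly fixed in advance. Against the contralateral knee it was fixed, since p cannot go below 0.10 there. The number of pairs past the threshold was 1 with DESeq2 size factors and with any library left out, and 4 with library totals only. Fold changes near 0 changed sign. With library totals only miR-99a-5p was at -0.083 against naïve cartilage, and against the contralateral knee miR-100-5p was at -0.010 with every miRNA of at least 1 count and at -0.017 with quality weights, and miR-125b-5p at 0.030 with quality weights. With single libraries left out, miR-99a-5p ranged from -0.013 to 0.18 against naïve and from -0.015 to 0.61 against contralateral cartilage, miR-125a-5p from -0.26 to 0.084 and miR-125b-5p from -0.17 to 0.071 against contralateral cartilage. Likewise the log2 ratio difference of miR-99b-5p to miR-99a-5p ranged from -0.0032 to 0.29 against naïve cartilage. Against contralateral cartilage that of miR-100-5p to miR-99a-5p ranged from -0.49 to 0.0096, of miR-125a-5p to miR-125b-5p from -0.28 to 0.045 and of miR-125b-1-3p to miR-125b-2-3p from -0.81 to 0.38. Among pairs, r was 0.56 for miR-100-5p with miR-125b-1-3p and 0.27 for miR-99a-5p with miR-125a-5p with library totals only. With single libraries left out r ranged from -0.014 to 0.50 for miR-100-5p with miR-125b-2-3p, from -0.41 to 0.37 for miR-99a-5p with miR-125b-2-3p, from -0.45 to 0.12 for miR-99a-5p with miR-125a-5p, from -0.10 to 0.35 for miR-99b-5p with miR-125b-1-3p and from -0.23 to 0.48 for miR-99b-5p with miR-125b-2-3p. The cause was not tested. Over all miRNAs, calls in day 7 injured versus naïve cartilage numbered 48 with at least 10 counts in every library, where fewer miRNAs were tested, and 135 with quality weights, against 78; in day 7 versus day 1 injured cartilage they numbered 44 and 109 against 67, and versus the contralateral knee 38 with the strict filter against 63. Library totals moved the median log2 fold change of all miRNAs to -0.13 in day 7 injured versus naïve cartilage. Depth limits the 3p arms most, with 16 to 228 reads of miR-99b-3p and 18 to 84 of miR-125a-3p per library.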
